A study of Mus musculus with 4 samples.

Results

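Alternative 5′ splice sites are pairs of donor sites that join different ends of an upstream exon to the same acceptor, so that the exon is made in a shorter and a longer form. All events of this type in the deposited splicing tables were taken, and events of the same gene with identical tags were counted once, which left 3640 events in 2760 genes out of 35945 splicing events of all 6 types. The data were mRNA-SEQ of the mouse cortex at E14.5 (embryonic day) from 2 control embryos, which carried the floxed allele *Qk* fl/fl without Cre and are labelled wild type, and from 2 *Qk* cKO littermates (*Nestin*-Cre:*Qk* fl/fl). Both groups thus carried loxP sites around exon 2 of *Qk*. The *Nestin* promoter drives Cre in neural progenitors, and recombination in the blood, vessels and meninges of the tissue was not measured. The comparison addresses whether the choice between neighbouring 5′ splice sites differed after deletion of this exon of *Qk*.

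A 5′ splice site is recognised early in splicing by base pairing with the U1 small nuclear RNA, and later by U6. Where several sites lie near each other, their match to U1, the distance between them, and proteins bound nearby set which of them is used. SR proteins and hnRNP proteins are known to shift this choice, and so are RNA-binding proteins with positional effects such as Rbfox, Nova and Qki. Qki, the product of *Qk*, binds RNA through a STAR domain at sequences such as ACUAAC, and its nuclear isoform Qki5 acts on pre-mRNA splicing in neural progenitors. An extension that keeps the reading frame adds amino acids to the protein, whereas an extension with a stop codon in frame ends translation early.

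In the following, the proximal site is the downstream site, which lies nearest to the acceptor and gives the longer exon, and the distal site is the upstream one. Site use is the share of junction tags on the proximal site, in percent. A change is *Qk* cKO minus control in percentage points, so that a positive change means more of the longer exon.

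The sites of the 3 events on which the results turn are shown first, each as 3 exon bases and 6 intron bases, with the GT that opens the intron in capitals. They were read from annotated transcripts of GENCODE M21 on mm10, so that a site is shown only where a transcript covers it.
Commonest base at each position of annotated sites: cagGTaagt
*Ptprz1* upstream site: atgGTgaga
*Ptprz1* downstream site: cagGTtagt
*Smarcc2* upstream site: cggGTaatg
*Evl* upstream site: cagGTgagc
Of 250378 annotated sites 35698 could be read, those whose intron bases lie within an exon of another transcript. Their shares and commonest bases need not be those of all annotated sites. Among them 95.9% had GT and 2.48% had GC at the intron start. The upstream site of *Ptprz1* matched the commonest bases at 5 of 9 positions and its downstream site at 8. The upstream sites of *Smarcc2* and *Evl* matched at 6 and 7 positions.

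Each sample had between 37942046 and 42994832 gene tags, and between 455792 and 540868 junction tags on alternative 5′ splice sites. Of the 3640 events, 316 had no junction tag in any sample, 600 had tags on the junction of only 1 of their sites, and 1852 had tags on both but less than the coverage minimum of 20 tags. The remaining 872 events in 745 genes were tested. Coverage is the smallest of the junction-tag sums of each group and of each site, so a rarely used site lowers it at any depth. *Qk* itself had no event of this type. The labels were checked on its junction from exon 2 to exon 3, which had 635 and 565 tags in the control samples and 63.0 and 68.0 in the *Qk* cKO samples. The junction from exon 3 to exon 4 had 574 and 439 tags in control and 898 and 830 in *Qk* cKO. At the gene level *Qk* was at 21.1 and 21.7 RPKM in control and at 32.5 and 34.2 RPKM in *Qk* cKO, a log2 fold change of 0.65 ± 0.06 (SE, FDR = 2.50e-05, edgeR quasi-likelihood test). Replicate 1 of each group expressed *Xist*, at 57.1 and 64.5 RPKM, and replicate 2 of each group expressed the Y-linked *Ddx3y*, at 13.2 and 15.9 RPKM, so each group held a female and a male.

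Of 10 cortex and neural progenitor markers only *Fabp7* was called at the gene level, lower in *Qk* cKO, and the list summed to 1264 and 1163 RPKM in control against 951 and 923 in *Qk* cKO. None of 7 cortical neuron, 5 subpallium, 5 blood, 6 meninges and vessel or 4 microglia markers was called with edgeR, and 0 to 3 of each list had an unadjusted p below 0.05. Of 11 hypothalamus and diencephalon markers 7 were called, all lower in *Qk* cKO, and the list summed to 14.2 and 22.3 RPKM in control against 10.4 and 9.15 in *Qk* cKO, with no marker at 0 in all samples. The part of this difference in the site use below was not tested. In these bulk samples fewer cells of a type and less RNA per cell cannot be told apart, and site use is an average over all cells.

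Of the 872 tested events, 29 in 28 genes were called with Fisher's exact test on isoform tags (p below 0.01 and FDR below 0.1), which is 3.33%. Proximal site use was higher in *Qk* cKO for 14 events (1.61%) and lower for 15 (1.72%). The change was at least 10 points for 13 of them (1.49%), 5 higher and 8 lower, while 91 of all tested events (10.4%) changed that much without regard to a test. For comparison, the same test called 4.57% of 2013 alternative 3′ splice sites and 4.97% of 1751 retained introns. This test takes tags as independent and pools the replicates. The quasi-likelihood test of edgeR for the interaction of isoform and genotype, which also takes the spread between embryos into account, called 3 events (0.344%), *Ptprz1*, *Smarcc2* and *Evl*. DESeq2 called the same 3. At an unadjusted p below 0.05 the edgeR test gave 35 of the 872 events, fewer than the share of 0.05 expected without any difference. Of these, 23 were among the 29, and both tests used the same isoform tags. In what follows, the FDR of Fisher's exact test for an event is that on isoform tags unless stated otherwise. With junction tags alone Fisher's exact test called 25 events (2.87%), 16 of them among the 29. On isoform tags its count was 7 without control replicate 1, 44 without control replicate 2, and 16 without either *Qk* cKO sample.

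**Figure D1:**
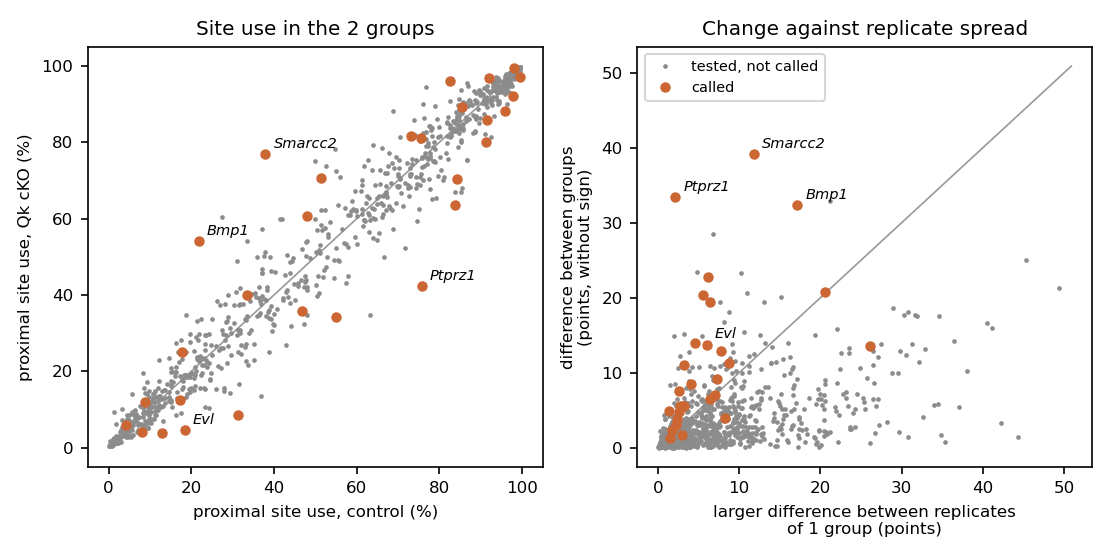
Left, proximal site use (% of junction tags) in control and *Qk* cKO for the 872 tested events, with tags summed over replicates. Right, the difference between the groups (points, without sign) against the larger difference between replicates of 1 group. Grey points are events not called, orange points are the 29 called events, and the lines mark equal values. In 25 of the 29 called events the difference between groups exceeded both replicate differences.

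The spread between embryos was of the size of most changes. Over all tested events the median difference between the 2 control samples was 3.53 points and that between the 2 *Qk* cKO samples 3.36 points, while the median change between groups was 2.38 points without sign. The change exceeded both replicate differences in 185 of the 872 events (21.2%). Among the called events this held for 25 of 29. The values of the 2 groups did not overlap in 26 of the 29 called events, beside 285 of all 872 (32.7%). The 3 called events with overlapping groups, named here after their values were seen, were *Ldlrad3*, *Tpm1* and *Xpa*. With 2 samples in each group an exact permutation test over samples cannot go below p = 0.333, so it was not used. The labels call the replicates independent. The p-values of edgeR and DESeq2 measure only the spread between these samples. Those of Fisher's exact test cover the counting error of pooled tags and no spread between embryos.

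*Ptprz1* encodes a receptor-type tyrosine phosphatase of radial glia, and its large exon codes for much of the extracellular region that carries chondroitin sulphate. The proximal site lengthens this exon by 2547 nt (chr6:23000200-23002746, plus strand), which are 849 codons without a stop in frame. Proximal site use was 74.8% (Wilson 95% interval 69.0 to 79.8) and 76.9% (70.8 to 82.0) in the control samples. It was 41.4% (36.5 to 46.5) and 43.3% (38.1 to 48.7) in the *Qk* cKO samples, so both lay far below both controls. The group means were 75.8% ± 1.47 and 42.4% ± 1.35 (SD, n = 2 each), and use over the summed junction tags fell by 33.4 points. As a share of isoform tags, which both tests compare and which include the tags within the extension, it fell by 7.45 points. The FDR was 4.44e-80 with Fisher's exact test and 5.53e-04 with edgeR. The log2 ratio of isoforms changed by -2.70 ± 0.18 (SE).

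Both junctions and the extension itself moved. The distal junction had 62.3 and 49.97 tags in control and 213 and 185 in *Qk* cKO, and the proximal one 185 and 166 against 150 and 142. The extension, its junction included, had 3719 and 3710 tags in the control samples and 1981 and 2075 in the *Qk* cKO samples, which is 51.5% of control after scaling to the gene tags of each sample. The gene itself was at 48.8 and 49.0 RPKM in control and 44.4 and 47.2 RPKM in *Qk* cKO (log2 fold change -0.08 ± 0.07 SE, FDR = 0.830, edgeR).

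*Smarcc2* encodes BAF170, a scaffold subunit of the BAF chromatin remodelling complex in neural progenitors. Its proximal site adds 342 coding nt without a stop in frame (chr10:128488018-128488359, plus strand), and it moved in the other direction. Proximal site use was 43.6% (Wilson 95% interval 38.4 to 48.9) and 31.8% (26.9 to 37.1) in control, so the controls differed from each other beyond their counting intervals. It was 76.1% (71.1 to 80.4) and 78.1% (72.9 to 82.5) in *Qk* cKO, above both controls. The change was 39.1 points, from a mean of 37.7% ± 8.35 to 77.1% ± 1.41 (SD, n = 2 each), with an FDR of 2.47e-45 with Fisher's exact test and 0.00322 with edgeR. It was 28.7 points as a share of isoform tags. The extension had 296 and 264 tags in control and 449 and 432 in *Qk* cKO, and the gene was at 177 and 186 RPKM against 171 and 168.

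*Evl* encodes a protein of the Ena/VASP family, which promotes the growth of actin filaments. The distance between its sites is 149 nt (chr12:108683262-108683410, plus strand). Proximal site use was 21.2% (Wilson 95% interval 19.3 to 23.4) and 15.3% (13.5 to 17.3) in control, and 4.40% (3.51 to 5.51) and 4.88% (3.91 to 6.08) in *Qk* cKO. Both *Qk* cKO samples thus used the proximal site less than either control, and the change of -13.8 points had an FDR of 4.44e-80 with Fisher's exact test and 0.00416 with edgeR. The change was -19.1 points as a share of isoform tags. The proximal junction had 321 and 211 tags in control and 72.2 and 74.8 in *Qk* cKO, whereas the distal junction had 1190 and 1169 against 1569 and 1457.

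The event of *Evl* is not read independently of a cassette exon. Its proximal and distal tags were those of the downstream and skipping junctions of a cassette exon of 63 nt in every sample, to within 1e-06 tags, so that the longer exon consists of the first exon, an intron of 86 nt and this cassette exon. The cassette exon was called as well, with inclusion at 19.8% in control and 5.13% in *Qk* cKO (FDR = 6.08e-87, Fisher's exact test; FDR = 0.00951, edgeR). The retained intron of 86 nt was called with Fisher's exact test (FDR = 2.41e-12) at 16.4% and 35.2%, but not with edgeR (FDR = 0.683). Of all tested events 39 (4.47%) shared their tags with a cassette exon in this way, and 4 of the 29 called ones did, *Evl*, *Aftph*, *Agrn* and *Dda1*, the last named for this count alone. *Ptprz1* and *Smarcc2* did not.

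**Figure D2:**
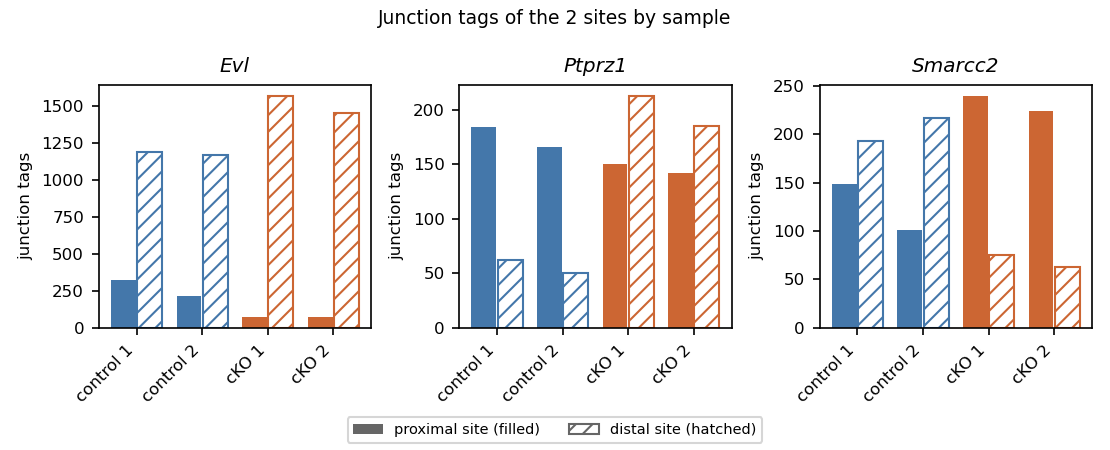
Junction tags (y axis) of the proximal site (filled bars) and the distal site (hatched bars) in the 2 control (blue) and 2 *Qk* cKO (orange) samples for *Evl*, *Ptprz1* and *Smarcc2*. The distal site of *Ptprz1* rose from 49.97 to 62.3 tags in control to 185 to 213 in *Qk* cKO, and that of *Smarcc2* fell from 193 to 217 tags to 63.0 to 75.4.

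The other 10 events called at 10 points or more were not called with edgeR, and the 4 with higher use in *Qk* cKO are given first. *Bmp1*, a metalloproteinase that cleaves procollagen, had proximal site use of 23.5% and 16.9% in control and 62.7% and 45.6% in *Qk* cKO (change 32.3 points, FDR = 0.0653, Fisher's exact test; FDR = 0.900, edgeR). Its junctions together held 34.0 and 12.4 tags in control and 13.3 and 13.5 in *Qk* cKO, and its Wilson intervals overlapped between the groups. As a share of isoform tags the change of *Bmp1* was 14.6 points, and that of *Aftph*, given next, was 9.50 points. The 1550-nt extension had 63.0 and 53.1 tags in control and 57.4 and 63.2 in *Qk* cKO, so the tags within it overlapped between the groups. *Aftph*, which encodes a clathrin-associated trafficking protein, had 48.1% and 54.5% in control against 69.3% and 72.3% in *Qk* cKO (FDR = 0.0139, Fisher's exact test; FDR = 0.900, edgeR). Both controls lay below both *Qk* cKO samples, but the Wilson interval of control replicate 2 overlapped those of both *Qk* cKO samples. The cassette exon of 81 nt that shares the tags of *Aftph* had an inclusion of 40.6% in control against 60.6% after the deletion. *Nfib*, a transcription factor of cortical progenitors, had 46.5% and 49.8% against 65.0% and 57.2%, and *Ldlrad3*, a membrane protein with an LDL receptor domain, had 71.4% and 97.6% against 96.2% and 95.8%. For *Ldlrad3* the 2 controls lay further apart than the groups, and the change was -1.56 points without control replicate 1. On the junction tags that give these shares, *Bmp1* and *Nfib* were not called (FDR = 0.124 and 0.114, Fisher's exact test).

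Use of the proximal site was lower in *Qk* cKO for the 6 others. *Aldh18a1* encodes the enzyme of the first steps of proline synthesis, and its sites lie 6 nt apart. Its proximal site use was 81.1% and 86.6% in control and 65.7% and 60.8% in *Qk* cKO, so both *Qk* cKO samples lay below both controls, by 20.3 points over the summed tags (FDR = 1.06e-07, Fisher's exact test). It had the smallest edgeR FDR outside the 3 events, at 0.224. *Fbxw17*, an F-box protein, had 30.8% and 32.0% against 5.88% and 12%, from 22.3 tags of coverage. *Ankrd16*, an ankyrin repeat protein, had 44.1% and 64.8% against 31.2% and 38.9%, where the controls differed by as much as the groups. The zinc finger gene *Zfp2* had 86.5% and 81.9% against 68.9% and 71.6%, at sites 44 nt apart in the 5′ UTR. The amino acid transporter gene *Slc36a4* had 95.2% and 86.5% against 82.2% and 78.1%. *Ccnt2*, a cyclin of the elongation factor P-TEFb, had 45.9% and 47.8% against 34.2% and 37.5%. From *Fbxw17* to *Ccnt2* the FDR was between 0.0613 and 0.0970 with Fisher's exact test on isoform tags and 0.900 with edgeR. On the junction tags that give these shares, their FDR was between 0.114 (*Zfp2*) and 0.409 (*Ccnt2*, Fisher's exact test), so none of them was called.

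**Figure D3:**
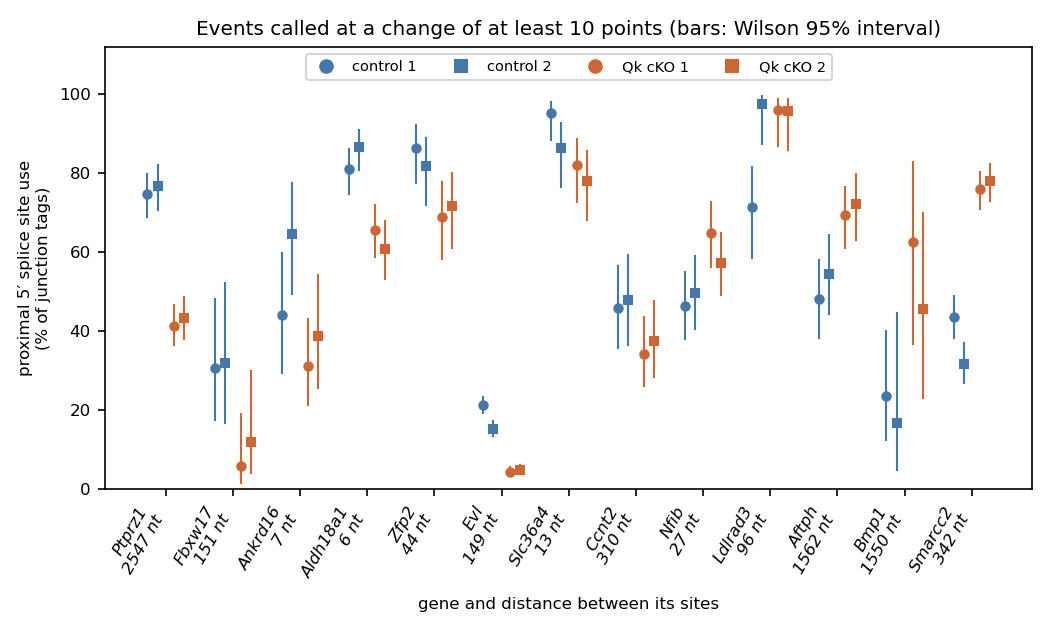
Proximal site use (% of junction tags, y axis) in each sample for the 13 events called at a change of at least 10 points, ordered by the change, with the distance between the sites under each gene. Blue, control; orange, *Qk* cKO; circles, replicate 1; squares, replicate 2; bars, Wilson 95% intervals, which cover counting error only. The groups overlap for *Ldlrad3* alone, where control replicate 1 was at 71.4% and the other 3 samples were between 95.8% and 97.6%.

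Among the 16 events called at less than 10 points, the 10 with the smallest p are given here. The changes of these 16 were at most 9.18 points in size, and *Smarcb1* and *Dlgap4* had the lowest FDR. *Smarcb1*, the core BAF subunit BAF47, had proximal site use of 71.2% and 75.2% in control and 81.9% and 81.4% in *Qk* cKO, a rise of 8.54 points (FDR = 2.71e-04, Fisher's exact test; FDR = 0.900, edgeR). *Dlgap4*, a scaffold of the postsynaptic density, had 89.98% and 93.0% against 85.7% and 86.1% (FDR = 0.00324, Fisher's exact test). *Chd3*, a helicase of the NuRD complex, had 7.78% and 9.91% against 13.0% and 10.8%, and *Agrn*, which encodes the proteoglycan agrin, had 99.7% and 99.3% against 98.0% and 96.3%. The distal junction of *Agrn* rested on 1 and 2 tags in control and 6 and 11 in *Qk* cKO. *Eif4b*, a translation initiation factor, had 97.5% and 98.9% against 99.7% and 99.2%. *Scaper* had 9.77% and 17.1% against 6.47% and 1.05%, *Cspg5*, a neural chondroitin sulphate proteoglycan, 17.8% and 17.9% against 21.3% and 28.4%, and the receptor kinase gene *Grk6* 99.3% and 96.1% against 92.3% and 92.2%. In each of these events, which were picked by p, the groups did not overlap, beside 285 of all 872 tested events (32.7%). On junction tags alone *Chd3* and *Cspg5* were not called (FDR = 0.491 and 0.179, Fisher's exact test).

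*Srsf7*, an SR protein that itself acts in splice site choice, held 2 of these events, which compare the same upstream site with sites 24 nt and 33 nt further downstream and so share its tags. Proximal site use was 75.9% and 75.2% in control against 82.4% and 79.8% in *Qk* cKO for the former, and 85.5% in both controls against 90.4% and 88.0% for the latter (FDR = 0.0448 each, Fisher's exact test; FDR = 0.900 each, edgeR). The choice between the 2 downstream sites was at 65.1% and 66.0% in control and 66.7% and 65.1% in *Qk* cKO (FDR = 1, Fisher's exact test). The level of *Srsf7* was 157 and 139 RPKM in control and 155 and 140 RPKM in *Qk* cKO.

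The coding extensions of at most 27 nt among the events above are shown because the amino acids gained or lost depend on these bases. The last 3 bases of the shorter exon are in lower case and the whole extension, whose mm10 coordinates are given, is in capitals.
*Aldh18a1*, chr19:40574211-40574216, minus strand: gggGTAAAT
*Nfib*, chr4:82323545-82323571, minus strand: aagGTGAGGCAGCTTCACCTACAGCAACCA
*Smarcb1*, chr10:75916773-75916799, minus strand: atgGTAAAAAAACAAAACCTAACACTAAGG
*Srsf7*, chr17:80204131-80204154, minus strand: tagGTCTGGTTCTATAATAGGATCGAG
*Scaper*, chr9:55864386-55864403, minus strand: aatGTGAGTGCTGCTGACTGG
*Slc36a4*, chr9:15737029-15737041, plus strand: ttgGTTAGTATCACCT
That of *Slc36a4*, at 13 nt, shifts the reading frame and the others keep it. None of the 6 held a stop codon in frame, ACTAAC or ACTAAT.

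Some of the most deeply covered events showed no such difference. The highest coverage among events not called was that of *Hnrnpc*, a nuclear RNA-binding protein, at 2617 tags, with proximal site use of 37.7% and 35.7% in control and 36.6% and 38.6% in *Qk* cKO. *Ddx17*, an RNA helicase, had 37.3% and 41.1% against 35.5% and 38.9%. *Hnrnph1*, which binds G-rich RNA, had 84.5% and 82.5% against 83.0% in both *Qk* cKO samples. *Tcf4*, a neural transcription factor, had 52.9% and 53.2% against 58.4% and 51.8%. In all of these, and in the third *Srsf7* event, the groups overlapped and the change was at most 2.11 points in size.

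Lists of genes were counted to place the called events, without a test of a list. The lists were chosen with earlier results of these data known, so a list can hold a called event by choice. Over all 872 tested events, 29 (3.33%) were called.
Of 44 factors known for 5′ splice site choice, 9 held an event and 6 a tested one, and 2 of their 12 tested events were called, both in *Srsf7* and both higher, with a median change of 0.29 points over the 12 against 0.04 points over all 872. Of their genes only *Qk* was called at the gene level, beside 110 of all 18834 genes (0.584%), and the log2 fold changes of all others lay between -0.24 and 0.17. Of 26 BAF subunits, 4 had a tested event, and 2 of these 4 events were called, both higher in *Qk* cKO, in *Smarcc2* and *Smarcb1*. *Pbrm1*, a subunit of the related PBAF complex, had 64.8% and 63.1% in control and 82.0% and 61.4% in *Qk* cKO, so its groups overlapped. No BAF subunit was called at the gene level with edgeR, and 3 had an unadjusted p below 0.05. Of 25 Ena/VASP and actin regulators, 4 events were tested and 1 was called, the lower one of *Evl*. Of 22 receptor phosphatases and axon guidance receptors, 5 events were tested and 1 was called, in *Ptprz1*. *Robo2*, a receptor for Slit proteins, had 66.3% and 63.4% against 66.4% and 61.5%. Of 34 neural transcription factors, 6 events were tested and 1 was called, in *Nfib*, and none was called at the gene level with edgeR in this list or that of the receptors, where 10 of 34 and 2 of 22 genes had an unadjusted p below 0.05, beside 8.76% of all 18834 genes.

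None of the 28 genes that hold the called events was called at the gene level with edgeR. Their log2 fold changes lay between -0.30 and 0.16, and 3 had an unadjusted p below 0.05. Of the 745 genes with a tested event, 5 were called. The median log2 fold change without sign was 0.07 for both sets of genes.

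The tested events were of short distances for the most part. The median distance between the sites was 28 nt over the tested events and 46 nt over the called ones. A multiple of 3 nt separated the sites in 49.8% of tested events, in 39.0% of the 3400 events with a recorded distance above 0, and in 16 of the 29 called events (55.2%). A spacing of 4 nt was found in 49 tested events. Their median proximal site use in control was 18.6% (quartiles 4.78% and 62.4%), against 51.4% over all tested events (quartiles 17.9% and 84.4%). None of these 49 was called on isoform tags, beside 29 of all 872 (3.33%), and neither was any of the 39 events at 1 to 3 nt. Of the 59 events with sites more than 300 nt apart, 8 were called (13.6%, beside 3.33% of all 872), among them *Ptprz1*, *Smarcc2*, *Aftph* and *Bmp1*. For *Aftph* and *Agrn*, also among the 8, most of the distance is an intron of 1481 and 412 nt before a cassette exon. Isoform tags include those within the extension, so that a longer extension brings more tags into the test. The part of this in the calls was not tested. With junction tags alone 6 of the 59 were called (10.2%, beside 2.87% of all 872).

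**Figure D4:**
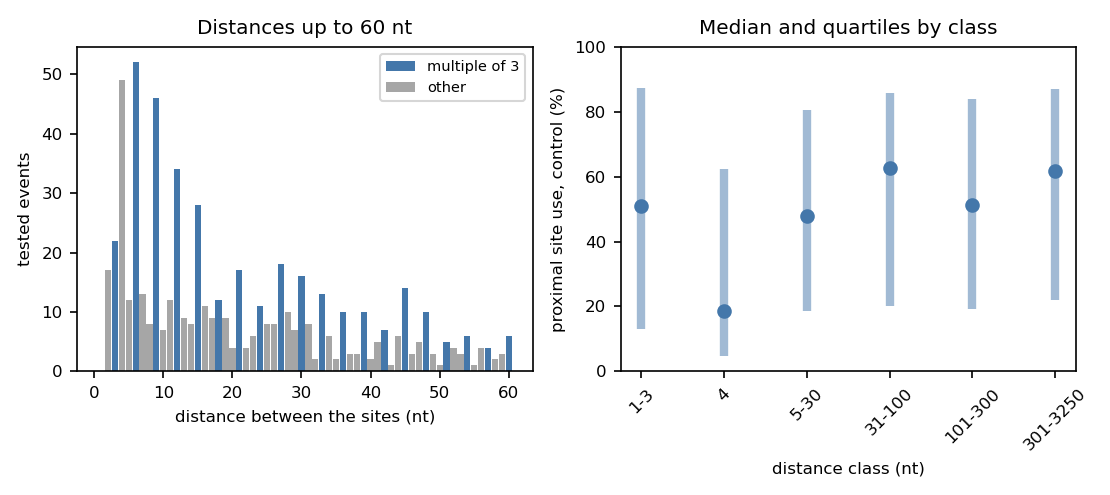
Left, number of tested events at each distance between the sites up to 60 nt, with multiples of 3 in blue. Right, proximal site use in control (% of junction tags) for 6 distance classes, as median (point) and quartiles (bar). The bar at 4 nt stands for 49 events, and their median use of 18.6% is below that of the other classes, which lie between 48.0% and 62.6%.

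Of the 872 tested events, 647 could be placed on annotated pairs of sites. The extension was coding in 399 of them, partly coding in 55, in the 5′ UTR in 38 and in the 3′ UTR in 11. In the other 144 no transcript of protein-coding type used the downstream site, though transcripts annotated for nonsense-mediated decay could. The frame was taken from a protein-coding transcript that uses the upstream site. Where it could be followed, 110 of 457 tested extensions (24.1%) held a stop codon in frame. This was the case for 7 of 20 called ones, of which 1 of 9 had higher and 6 of 11 had lower proximal site use in *Qk* cKO. The first stop was at codon 2 of the extension in *Evl*, *Dlgap4*, *Fbxw17*, *Ankrd16* and *Mrps11*, the last named for this count alone, at codon 5 in *Ccnt2* and at codon 27 in *Aftph*. The extension of *Dlgap4* was only partly coding. All 7 annotated transcripts that use its downstream site are of protein-coding type, and their own frame was not followed. In *Evl* and *Aftph* the stop lies in the intron of 86 or 1481 nt before the cassette exon, which transcripts with the counted proximal junction need not contain. The extensions of *Ptprz1*, *Smarcc2*, *Nfib* and *Smarcb1* had none.

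Both sites could be read for 245 tested events, and the downstream site had more matches in 86 of them, the upstream site in 86, with 73 ties. Median proximal site use in control was 61.1% (quartiles 27.1% and 88.6%) where the downstream site had more matches, and 43.4% (quartiles 21.7% and 78.1%) where the upstream site had more, so the quartile ranges largely overlapped. The median number of matches of the upstream site was 6 of 9 both for the tested and for the called events.

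The DNA letters of the Qki site were rare in the extensions themselves. ACTAAC was present in 8 of 643 tested extensions that could be read (1.24%) and its reverse complement in 13 (2.02%), over 68407 bases in all, and ACTAAT in 10 (1.56%) on each strand. Among 2083 extensions of all events, ACTAAC was found in 1.44%. Of the 23 called extensions that could be read, that of *Aftph* held both ACTAAC and ACTAAT, and that of *Dlgap4* held ACTAAT. The letters GTAAGT, the intron start that pairs best with U1, were in 30 of the 643 extensions (4.67%, and 1.09% on the opposite strand). Each extension opens with the intron start of the upstream site, so GTAAGT can be that site itself, and the 2 strands are not alike in this. None of the 23 called extensions held it, too few to tell this from 4.67%. The flanking introns could not be read from transcripts and were not searched here.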

How the data were processed

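Messenger RNA of 4 samples was selected by poly-A, sequenced in pairs, aligned by the authors with OLego to mm10 and to known exon junctions, and quantified with Quantas. The authors deposited estimated counts of tags per gene, with RPKM, and per isoform and junction of each event. These need not be whole (8.41% to 12.1% of genes per sample were not), so they were rounded here. Sites were placed on GENCODE M21, which uses the same build. Isoform tags were summed over replicates and compared with Fisher's exact test (two-sided, SciPy 1.17.1) at a coverage of at least 20 tags. FDR is the Benjamini-Hochberg value over all tested events, before repeats were removed. edgeR 4.0.16 and DESeq2 1.42.0 (R 4.3.3) tested the interaction of isoform and genotype with a baseline per sample, and edgeR tested every gene that had 1 tag or more among the samples. Calls needed p below 0.01 and FDR below 0.1. The tests were checked on simulated counts with seeded changes. Wilson intervals cover counting error only, since tags are not independent molecules.

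The study's methods name 3 replicates for RNA, the labels 2. Events, gene lists and thresholds were chosen with earlier results of these data known. Named events were all those called at 10 points or more or by edgeR, the 10 with the smallest p of the others called, and the 5 with the highest coverage among those not called, with at most 4 further examples of a gene list, taken by coverage. Alternatives were junction tags, coverage of at least 10 or 50, DESeq2, a replicate block, other adjustments, a change of at least 20 points, and each sample left out.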

Additional observations from a re-analysis of the deposited data

How the results depend on the processing

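The number of events called (29, and 13 at 10 points or more) was within 1.5 times of this with junction tags only (25 and 11), with coverage of at least 10 (25 and 9) or 50 (21 and 10), with adjustment over all event types (37 and 16) or after removal of repeats (29 and 13), and with repeats kept (29 and 13). It was 3 with the edgeR interaction test and 3 with DESeq2, all of at least 10 points, and 6 at a change of at least 20 points. Over the fits without 1 sample it lay between 1 and 44, and between 1 and 23 at 10 points or more, with Fisher's exact test at 7, of which 5 at 10 points or more (control replicate 1 left out), 44 (control replicate 2) and 16 (either Qk cKO sample). The edgeR count of 3 was 1 without either Qk cKO sample, when only *Ptprz1* was called, and 3 without either control and with adjustment over all event types. The lone sample of a group is then assumed to vary like the others. Called genes among the hosts and the splice site factors (1, *Qk*) numbered 0 to 2 without 1 sample, and 1 with DESeq2, upper-quartile scaling and filterByExpr. The cause of these differences was not tested.

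The labels give no pairing behind the replicate numbers, which go with the sex of the embryos. Samples with the same number deviated from their group means with a correlation of -0.10 in site use (872 events) and 0.34 in gene level (13810 genes), and with 2 numbers they were not taken as pairs. With the replicate block, the Cochran-Mantel-Haenszel test called 21 events, 8 at 10 points or more and without *Bmp1*, *Ankrd16*, *Slc36a4*, *Ldlrad3* and *Ccnt2* (FDR = 0.105 to 0.175), edgeR called 3, all of at least 10 points, and 1 gene was called. With crossed numbers, chosen after seeing the data, these counts were 16 and 7, and 3 and 3. The change in site use of *Ldlrad3* turned to -1.56 points without control replicate 1, and no other change of a named called event turned its sign when a sample was left out. With isoform tags in place of junction tags, 8 of 28 named changes moved by more than the spread between replicates, none of them turning its sign. These were *Ptprz1*, *Smarcc2*, *Evl*, *Aftph* and *Bmp1*, with values beside them above, *Chd3* (7.404 in place of 3.02 points), *Agrn* (-0.99 in place of -2.33) and *Srsf7* at 24 nt (2.35 in place of 5.56). The mean of replicates moved none by that much. The log-odds score put the downstream site higher in 52.0% of the events with unequal scores, against 50% of those with unequal numbers of matches. Sequence windows of 100 or 200 nt around the sites were not run, since no genome was used. The coverage minimum limits the rest: 1852 events with tags on both junctions were under it, which can come from low depth or from a rarely used site.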

Other observations

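With junction tags alone 25 events were called (2.87% of 872), of which 16 were among the 29 called on isoform tags. The other 9 were *Prc1*, *Cdk10*, *Add1*, *D19Wsu162e*, *Celf4*, *Bptf*, *Rpl10a*, *Pea15a* and *Chd4*, named after their values were seen. The event with the lowest FDR of these was that of *Prc1*, a microtubule-bundling protein of dividing cells, with proximal site use of 32.6% and 24.4% in control and 42.5% and 37.3% in *Qk* cKO (FDR = 0.0493, Fisher's exact test on junction tags; FDR = 0.176 on isoform tags). *Celf4*, a neuronal RNA-binding protein, had 35.4% and 34.8% in control and 24.5% and 21.8% in *Qk* cKO (FDR = 0.0880 and 0.494 in the same tests). *Bptf*, a subunit of the NURF remodelling complex, had 16.8% and 23.5% against 34.5% and 24.8% (FDR = 0.0880 and 0.978). The groups did not overlap in these 3 events, and edgeR called none of the 9 (FDR = 0.900 to 0.977). The gene of the event in *Pea15a* was also lower in *Qk* cKO (log2 fold change -0.50 ± 0.07 SE, FDR = 0.00293, edgeR), and its controls, at 62.5% and 92.8%, lay further apart than the groups.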
